A study of Mus musculus with 41 samples.

Results

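Polyamine synthesis is held in check by antizyme, a protein whose mRNA is decoded by ribosomes that change reading frame, and the 8 genes described here cover that circuit. They were taken by symbol: the antizyme genes Oaz1 and Oaz2, the antizyme inhibitor gene Azin1, the enzyme genes Odc1, Amd1, Srm and Sms, and the catabolic gene Sat1. All 8 symbols were found, among 22438 genes with footprint counts and 55385 genes with RNA values. The study removed Hbs1l, Pelo or Upf2 from mouse cells and tissues. HBS1L and PELO rescue ribosomes that stall at the end of a truncated message, and UPF2 takes part in nonsense-mediated decay (NMD), which degrades mRNAs with a premature stop codon. Ribosome profiling, which sequences the mRNA stretches shielded by ribosomes, was done on 30 samples, and 11 RNA samples were sequenced from the fibroblasts. Every group held 3 libraries, except RNA of Pelo-/- fibroblasts with 2.

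Embryos were C57BL/6NJ, whole, at E8.5 and pooled before sequencing, and Hbs1l-/- embryos were compared with Wildtype ones. Cerebella were C57BL/6J at P14, from Atoh-Cre;Hbs1l cKO mice and Atoh-Cre;Hbs1l +/+ controls, so that both groups carried the Cre. Atoh1-driven Cre acts in the granule cell lineage. By the study's methods, these cKO mice carried a floxed and a null allele of Hbs1l. The other cells of a cKO cerebellum therefore keep only the floxed allele, while controls were Hbs1l +/+. The mouse embryonic fibroblasts (MEFs) were C57BL/6, carried CAG-Cre ER, a Cre that tamoxifen switches on, and were all treated with tamoxifen. The mutant MEFs had in addition a conditional allele of Hbs1l, Pelo or Upf2, and are called Hbs1l-/-, Pelo-/- and Upf2-labelled MEFs below. Each MEF mutant was profiled in its own batch with 3 control libraries, and all RNA libraries were in another batch, so that the assay and its batch cannot be told apart in a ratio of footprints to RNA. By the study's methods, a replicate was 1 cerebellum, a pool of embryos, or the fibroblasts of 1 embryo.

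ODC1 makes putrescine from ornithine and is the first enzyme of the pathway. AMD1 provides the aminopropyl donor by decarboxylating S-adenosylmethionine, SRM uses it to make spermidine and SMS uses it to make spermine, while SAT1 acetylates spermidine and spermine for export or breakdown. Antizymes bind ODC1 monomers and send them to the proteasome, and AZIN1, an ODC1 relative without enzyme activity, binds antizyme in its place. Several of these mRNAs carry an element by which polyamines act on their translation: the +1 frameshift site of the antizymes, and upstream open reading frames (uORFs) in the leaders of Amd1, Odc1, Azin1 and Sat1.

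The sequences that set these genes apart are shown first, since the footprint counts below depend on them. They were read from the Gencode M21 transcripts on GRCm38, 5′ to 3′. In Oaz1 (chromosome 10, 80826656 to 80829290, plus strand) and Oaz2 (chromosome 9, 65668001 to 65690300, plus strand) the first frame ends at the stop codon in capitals, and the full protein needs a ribosome to skip 1 base there. Oaz1 has 68 codons before this stop and 159 after the shift, and Oaz2 has 32 and 157.
Oaz1, chr10:80828282-80828311, coding exon: tcggtggtgctccTGAtgtccctcacccac
Oaz2, chr9:65686259-65686288, coding exon: tctgtggtgctccTGAtgcccctcacccac
The Amd1 leader (gene on chromosome 10, 40287458 to 40302186, minus strand) holds 1 short uORF of 6 codons and a stop, given whole in capitals.
Amd1, chr10:40302155-40302175, minus strand, 5′ leader: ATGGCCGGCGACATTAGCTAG
Sat1-207, a Sat1 transcript annotated as an NMD target, has an exon of 110 bases (chromosome X, 155215121 to 155215230) that the main transcript Sat1-201 lacks, and the stop codon in capitals near the start of this exon ends its reading frame after 71 codons, against 171 in Sat1-201.
Sat1-207, chrX:155215201-155215230, minus strand, start of the extra exon: gttacagtctcTAGcttcgccatgtacatg
The last sequence holds the base, in capitals, at which the coding sequence of Oaz1 differs from the processed pseudogene Oaz1-ps. The difference is G125C, counted from the first base of the start codon with the Oaz1 base first, and it was the 1 difference in 682 bases compared.
Oaz1, chr10:80826870-80826899, coding exon: tagtcagcacagccGcggcggctgcagcag

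The remaining members lie on chromosome 15 (Azin1, 38487427 to 38519266, minus strand), chromosome 12 (Odc1, 17544794 to 17551505, plus strand), chromosome 4 (Srm, 148591503 to 148594993, plus strand) and chromosome X (Sms, 157443855 to 157492287, and Sat1, 155213132 to 155216449, both minus strand). In the leader of the coding transcript with most RNA, Azin1 had 6 complete uORFs that start with ATG, Sms 3, Odc1 2, and Amd1 and Sat1 1 each. Frames with other start codons were not searched, and whether polyamines act through the counted uORFs was not tested. The leaders of Oaz1, Oaz2 and Srm had no upstream ATG.

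Footprints are about as long as the 28-base windows into which each coding sequence was divided, and many windows of this family also occur in transcripts of other genes. All 975 windows of Amd1 were shared, with 8 genes that include Amd2 and several processed pseudogenes, and all 1071 windows of Sms were shared, each of them with Sms-ps. Of Oaz1, 627 of 655 windows (95.7%) were shared, all with Oaz1-ps. The 28 windows that only Oaz1 holds form 1 run over coding bases 98 to 152, around the G125C base printed above, and all lie before its frameshift site. Odc1 shared 84.4% of its windows, Oaz2 71.3%, Sat1 38.9%, Srm 21.4% and Azin1 none. How the authors' counting treated reads with several matches is not given in the sources used here.

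In control MEFs the members' ratio of footprints to RNA covered a wide range. Per kb of coding sequence and per TPM of RNA, Azin1 had 1.66 footprint CPM and Srm 1.19, and the median of 10942 genes with at least 1 TPM was 1.88. Sat1 had a ratio of 0.385, Oaz2 0.352, Odc1 0.0923, Sms 0.0271, Oaz1 0.0243 and Amd1 0.00637. Oaz1, whose RNA was at 454 TPM and in the 98.0th percentile of these genes, stood in the 2.42nd percentile by this ratio. Azin1 stood in the 43.5th percentile, Srm in the 28th, Sat1 in the 7.8th, Oaz2 in the 7.29th, Odc1 in the 3.57th, Sms in the 2.6th and Amd1 in the 1.63rd. The order of the ratio ran nearly opposite to that of the shared windows, and with 8 genes of 1 pathway this is a description. Relatives also had RNA in control MEFs, with 65.05 TPM for Oaz1-ps, and 12.2 TPM for Sms-ps beside 19.1 TPM for Sms. The part of shared sequence in these low ratios, on the footprint or the RNA side, was not tested. The frameshift itself cannot be read from these values, since 1 count is given for the whole coding sequence. The 28 windows that only Oaz1 holds all lie before its frameshift site, so the part of each frame in its count is not known.

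**Figure D1:**
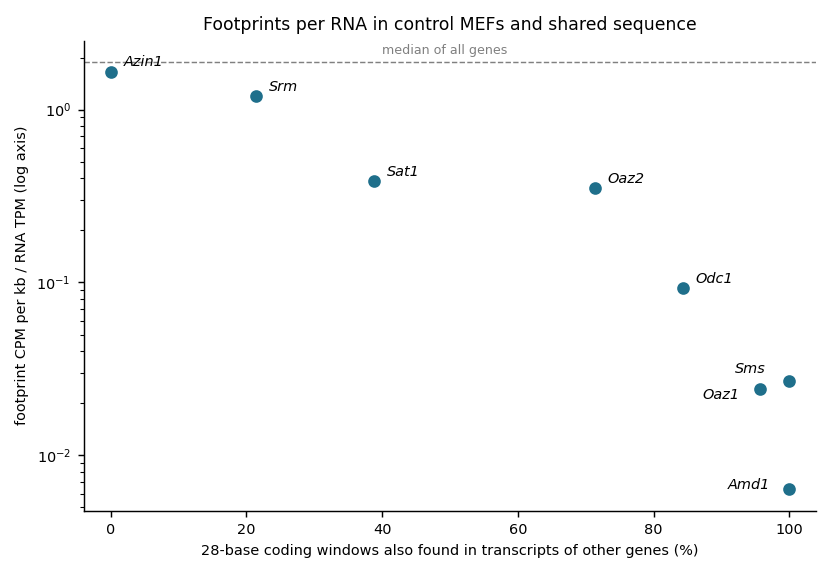
The x axis gives the percentage of 28-base coding windows of each member that also occur in transcripts of other genes, and the y axis, on a log scale, the footprint CPM per kb of coding sequence divided by RNA TPM in control MEFs (means over 9 footprint and 3 RNA libraries). Azin1 and Srm lie near the dashed median of 1.88, while Oaz1, Sms and Amd1, with at least 95.7% of windows shared, lie at or below 0.0271.

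Levels between genes were compared per kb of coding sequence. In the 9 control MEF libraries, Srm was highest by footprint CPM per kb, with pool means between 242 and 250.0. Sat1 followed between 78.2 and 81.6, Azin1 between 57.3 and 57.6, Odc1 between 19.0 and 21.4, Oaz2 between 14.7 and 17.3 and Oaz1 between 10.9 and 11.4. Odc1 and Oaz2 overlapped in 1 of the 3 pools, as did Oaz2 and Oaz1. Sms and Amd1 had pool means below 1 CPM per kb and overlapped in every pool. By RNA the order was different: Oaz1 was highest at 454 ± 34.7 TPM (SD, n = 3), Odc1, Sat1 and Srm lay together between 206 and 223 TPM, and Oaz2, Amd1, Azin1 and Sms had 46.1, 36.6, 34.6 and 19.1 TPM. Odc1, Sat1 and Srm did not differ beyond their spread, nor did Amd1 and Azin1.

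Footprint levels of the members differed between the control tissues, described here without a test because each tissue was its own batch. No RNA was sequenced from embryos or cerebella, so translation and RNA level cannot be told apart there. By the study's methods, a narrower range of fragment lengths was purified for cerebella than for embryos and MEFs. Oaz1 footprints were at 35.9 CPM in cerebellum and 34.9 CPM in embryos, with overlapping replicates, and between 7.61 and 7.98 CPM in the MEF pools. Oaz2 was highest in cerebellum at 35.4 CPM, against 13.4 in embryos and 10.4 to 12.3 in MEFs. Srm stood at 347 CPM in embryos, 219 to 226 CPM in MEFs and 54.7 CPM in cerebellum, and these ranges did not overlap. Sat1 was highest in MEFs and lowest in embryos, with 42.6 to 44.5 CPM in MEFs, 24.6 CPM in cerebellum and 6.12 CPM in embryos. Odc1 was lowest in cerebellum at 14.3 CPM, and Azin1 varied least, from 60.1 to 78.1 CPM. In such bulk samples fewer cells of a type and less RNA per cell cannot be told apart.

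Embryo libraries held 2634480 to 7298812 counted footprints, cerebellum libraries 10919139 to 22591768 and MEF libraries 5782990 to 25607974. The RNA libraries held 22713643 to 86425762 estimated counts each. Footprints of the targeted gene fell in the Hbs1l-/- embryos, cerebella and MEFs (log2 changes of -3.60, -1.50 and -4.15) and in Pelo-/- MEFs (-3.78). In the Upf2-labelled MEFs those of Upf2 were higher, at 125 to 130.4 CPM against 56.5 to 67.1 CPM (log2 change 1.09), and a count over the whole gene does not check the loss of some of its exons. The 3 MEF pools seem to share control preparations, though the labels do not say so: counts of same-numbered control libraries of different pools differed little more than by counting error (chi-square per degree of freedom 1.11 to 1.18), against 4.03 to 12.4 for other pairs. The 3 MEF comparisons are therefore not taken as independent, and their values are given side by side only. Fibroblast markers summed to 32910 to 34970 CPM in control MEFs, granule neuron markers to 2609 to 4135 CPM in control cerebella, where Gabra6 was present, and 3 embryonic globins to 10430 to 13430 CPM in Wildtype embryos.

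In MEFs, footprints of Srm, the spermidine synthase gene, rose in all 3 mutants, and footprints of Sat1, which acts in the opposite direction on spermidine, fell in all 3. Srm stood at 264, 259 and 258 CPM in Hbs1l-/- MEFs against 223, 214 and 221 CPM in their controls. It stood at 274, 310.2 and 309 CPM in Pelo-/- MEFs against 227, 217 and 220.1 CPM, and at 286, 289.5 and 301 CPM in Upf2-labelled MEFs against 233, 226 and 221 CPM. No mutant library overlapped a control library. The log2 changes were 0.26 ± 0.06 (SE), 0.39 ± 0.07 and 0.42 ± 0.06, with adjusted p values of 0.00427, 0.00102 and 0.000197 from edgeR's quasi-likelihood test.

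Sat1 showed the larger change. Its footprints were at 20.5, 19.7 and 30.9 CPM in Hbs1l-/- MEFs against 47.6, 41.5 and 39.9 CPM, a log2 change of -0.83 ± 0.15 (SE, adjusted p = 0.000785, edgeR). In Pelo-/- MEFs they were at 21.2, 22.3 and 22.7 CPM against 42.7, 47.9 and 42.8 CPM, close to 2-fold lower with a log2 change of -1.04 ± 0.09 (adjusted p = 1.07e-05, edgeR). The Upf2-labelled MEFs had 24, 36.7 and 26.0 CPM against 44.6, 42.0 and 41.2 CPM, and a log2 change of -0.49 ± 0.13 (adjusted p = 0.00904, edgeR). In each mutant every library lay below every control library. These 6 calls on Srm and Sat1 held under every alternative setting and without any 1 library.

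Oaz1 footprints rose in Pelo-/- MEFs, with 11.1, 16.4 and 14.4 CPM (160, 232 and 315 counts) against 6.04, 7.58 and 9.39 CPM (60, 81 and 92 counts), and the groups did not overlap. The log2 change was 0.83 ± 0.19 (SE, adjusted p = 0.00565, edgeR) and lay between 0.69 and 1.00 when 1 library was left out. In Hbs1l-/- MEFs Oaz1 was at 7.13, 5.57 and 8.51 CPM against 8.73, 7.98 and 7.23 CPM, and in Upf2-labelled MEFs at 6.84, 9.45 and 9.68 CPM against 7.24, 7.71 and 7.89 CPM. Both pairs of groups overlapped, with log2 changes of -0.13 ± 0.19 and 0.25 ± 0.17 that did not pass the test (adjusted p = 0.625 and 0.243, edgeR). The counts rest on few reads, and 95.7% of the coding windows of Oaz1 are shared with its pseudogene.

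Odc1 footprints fell in Hbs1l-/- MEFs, to 25.5, 21.7 and 22.6 CPM from 32.4, 33.2 and 27.5 CPM (log2 change -0.39 ± 0.11 SE, adjusted p = 0.0139, edgeR). They also fell in Upf2-labelled MEFs, to 23.3, 25.3 and 23.2 CPM from 34, 33.3 and 26.8 CPM (-0.34 ± 0.11, adjusted p = 0.0313, edgeR). In both, the mutant libraries lay below the control libraries. Pelo-/- MEFs, at 24.2, 26.7 and 29.6 CPM, overlapped their controls at 30.5, 26.8 and 26.3 CPM (-0.09 ± 0.10, adjusted p = 0.533, edgeR). The call in Hbs1l-/- MEFs was lost without control replicate 1 (adjusted p = 0.0657, edgeR), and that in Upf2-labelled MEFs without any of the 3 mutant libraries or control replicate 1 or 2 (adjusted p = 0.0628 to 0.13, edgeR).

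Oaz2 and Azin1 footprints did not pass the test in any of the 3 MEF mutants. Oaz2 lay between 6.4 and 14.6 CPM over all mutant MEF libraries and between 8.54 and 13.5 CPM over the control libraries, and its groups overlapped in each comparison. Azin1 in Hbs1l-/- MEFs, at 87.0, 86.7 and 93.2 CPM, lay above its controls at 76.9, 71.8 and 84.5 CPM, and its log2 change of 0.21 ± 0.08 (SE) had an adjusted p of 0.0625 (edgeR). In the other MEF mutants the log2 changes of Azin1 were 0.01 ± 0.08 and 0.04 ± 0.07. Amd1 and Sms did not pass the filter on low counts in MEFs, with 0 to 17 counts per MEF library for Amd1 and 1 to 18 for Sms. Without the filter, neither passed the test in footprints of any MEF mutant (adjusted p = 0.185 to 0.859, edgeR). A count of 0 for Amd1, as in control replicate 1 of the Hbs1l pool and mutant replicate 1 of the Upf2 pool, allows up to 0.258 and 0.519 CPM (3 counts, counting error only). In all, 3 of the 6 members tested were called in each mutant, where 34.1% of all genes tested were called in Hbs1l-/-, 44.1% in Pelo-/- and 43.4% in Upf2-labelled MEFs. The median log2 change of the 6 was -0.16, -0.04 and 0.13 in these mutants, against a median of all genes of -0.01, 0.00 and 0.00.

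**Figure D2:**
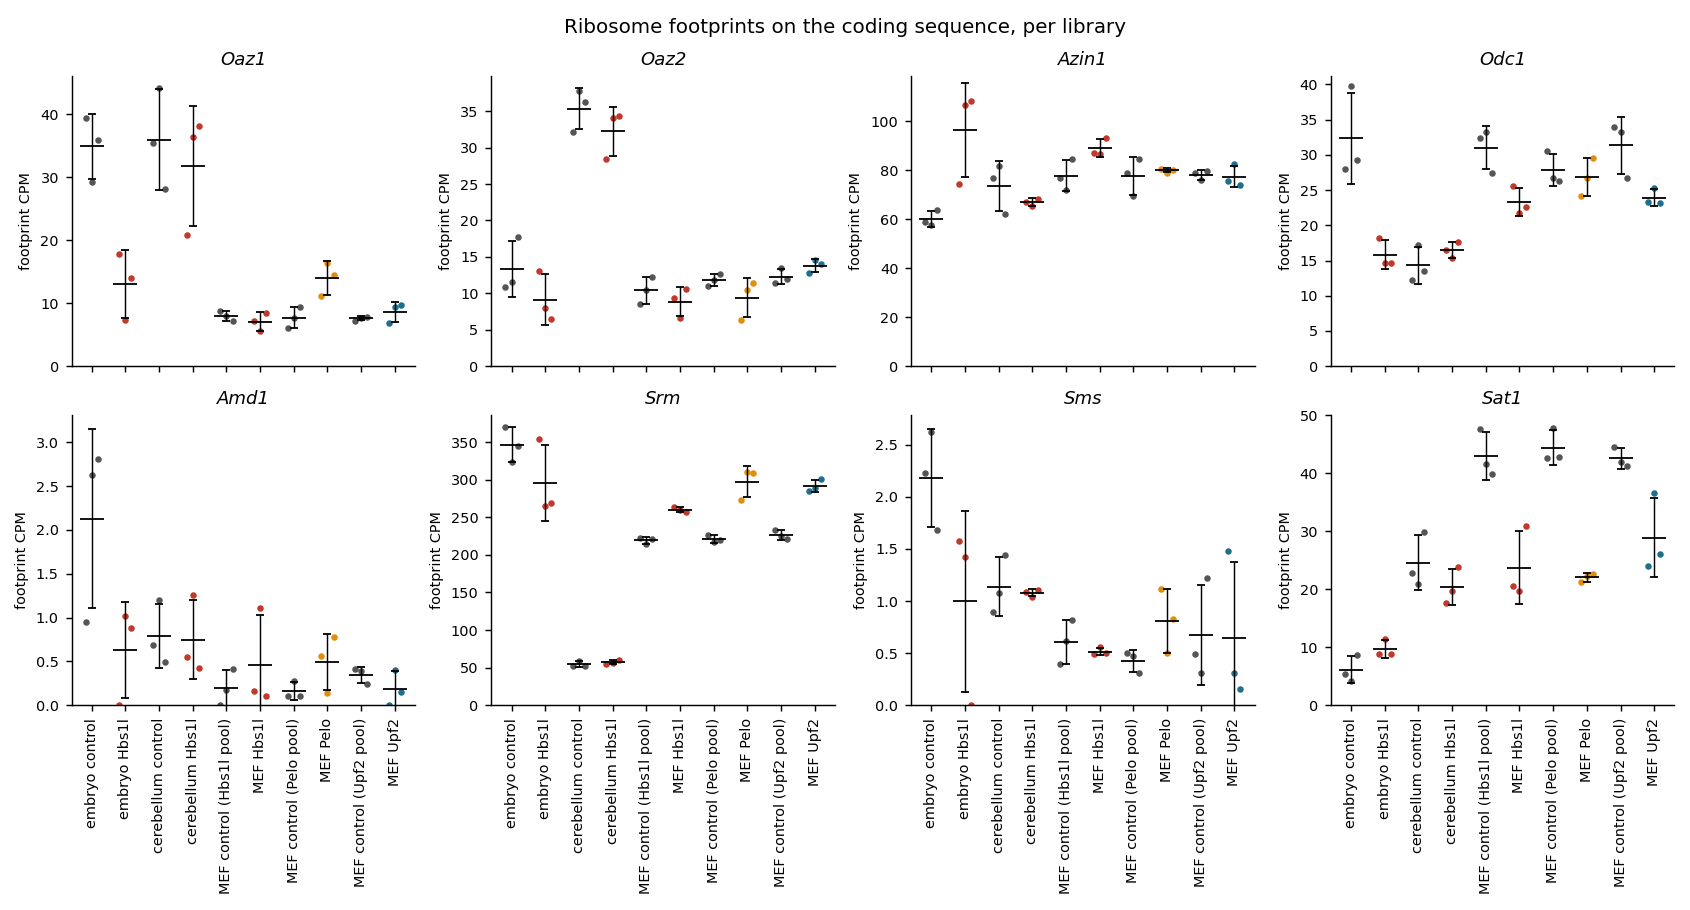
Each panel plots the footprint CPM (y axis, linear from 0) of 1 member in each library, by group (x axis), with the mean and SD over 3 libraries in black; grey points are controls and coloured points mutants. Sat1 lies lower and Srm higher in all 3 MEF mutants than in their controls, Oaz1 is higher in Pelo-/- MEFs and lower in Hbs1l-/- embryos, and Amd1 and Sms stay below 3 CPM in every library.

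RNA of the members was measured in the same kinds of MEFs by TPM, with tests on estimated counts. Each mutant was compared with the same 3 control RNA libraries, so the RNA comparisons are not independent of each other. In Hbs1l-/- MEFs 4 of 8 members were called, where 23.1% of all genes tested were. Sat1 RNA fell most, to 80.2, 88.8 and 109 TPM from 221, 206 and 193 TPM, with no overlap and a log2 change of -1.20 ± 0.15 (SE, adjusted p = 0.00169, edgeR). Srm RNA rose to 306, 276 and 298 TPM from 187, 204 and 227 TPM (0.49 ± 0.09, adjusted p = 0.00747, edgeR). Oaz1 RNA, at 624, 569 and 636 TPM against 442, 428 and 493 TPM, rose by 0.37 ± 0.11 (adjusted p = 0.0352, edgeR). Odc1 RNA, at 289.9, 266 and 288 TPM against 209.6, 216 and 242 TPM, rose by 0.31 ± 0.10 (adjusted p = 0.0469, edgeR), while its footprints had fallen. The calls on Sat1 and Srm held in every alternative. That on Oaz1 was lost without any 1 of the 3 mutant libraries or control replicate 2 or 3 (adjusted p = 0.0538 to 0.122, edgeR), and that on Odc1 without any 1 of the 6 libraries (adjusted p = 0.063 to 0.164, edgeR), with RLE factors (0.0506) and with no filter on low counts (0.0834).

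In Pelo-/- MEFs 3 of 8 members were called, all lower, where 32.1% of all genes tested were called. Amd1 RNA was at 29.9 and 26.4 TPM against 31.3, 40.6 and 37.7 TPM, with a log2 change of -0.52 ± 0.08 (SE, adjusted p = 0.00433, edgeR) that held in every alternative. Sat1 RNA was at 173 and 167 TPM against 221, 206 and 193 TPM (-0.44 ± 0.12, adjusted p = 0.0327, edgeR). Oaz1 RNA was at 411 and 382 TPM against 442, 428 and 493 TPM (-0.31 ± 0.09, adjusted p = 0.0437, edgeR), the opposite of its footprints in the same mutant. These calls rest on 2 mutant libraries. That on Sat1 was lost without either mutant library (adjusted p = 0.147 and 0.188, edgeR), and that on Oaz1 without either mutant library or control replicate 1 or 3 (adjusted p = 0.076 to 0.249, edgeR) and with no filter on low counts (0.0556). Azin1 RNA, at 53.0 and 49.9 TPM against 30.4, 39.0 and 34.3 TPM, had a log2 change of 0.28 ± 0.11 (adjusted p = 0.0852, edgeR).

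In the Upf2-labelled MEFs 2 of 8 members were called, both antizyme genes and both higher, where 20.0% of all genes tested were called. Oaz2 RNA stood at 79.3, 79.0 and 86.5 TPM against 43.5, 44.8 and 49.9 TPM, with no overlap and a log2 change of 0.84 ± 0.12 (SE, adjusted p = 0.000779, edgeR), which held in every alternative. Oaz1 RNA stood at 569.8, 648 and 584 TPM against 442, 428 and 493 TPM (0.41 ± 0.12, adjusted p = 0.0298, edgeR), a call lost without mutant replicate 2 or 3 or control replicate 2 or 3 (adjusted p = 0.0616 to 0.112, edgeR). Amd1 RNA, at 31.4, 33.3 and 19.3 TPM against 31.3, 40.6 and 37.7 TPM, did not pass the test (-0.38 ± 0.14, adjusted p = 0.0876, edgeR), though it did with DESeq2 (adjusted p = 0.0475). Sat1 RNA, whose footprints were lower here, overlapped the controls at 242, 186 and 238 TPM (0.13 ± 0.16, adjusted p = 0.61, edgeR). Sms RNA stayed between 17.5 and 26.4 TPM in all 11 libraries and passed the test in no mutant.

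**Figure D3:**
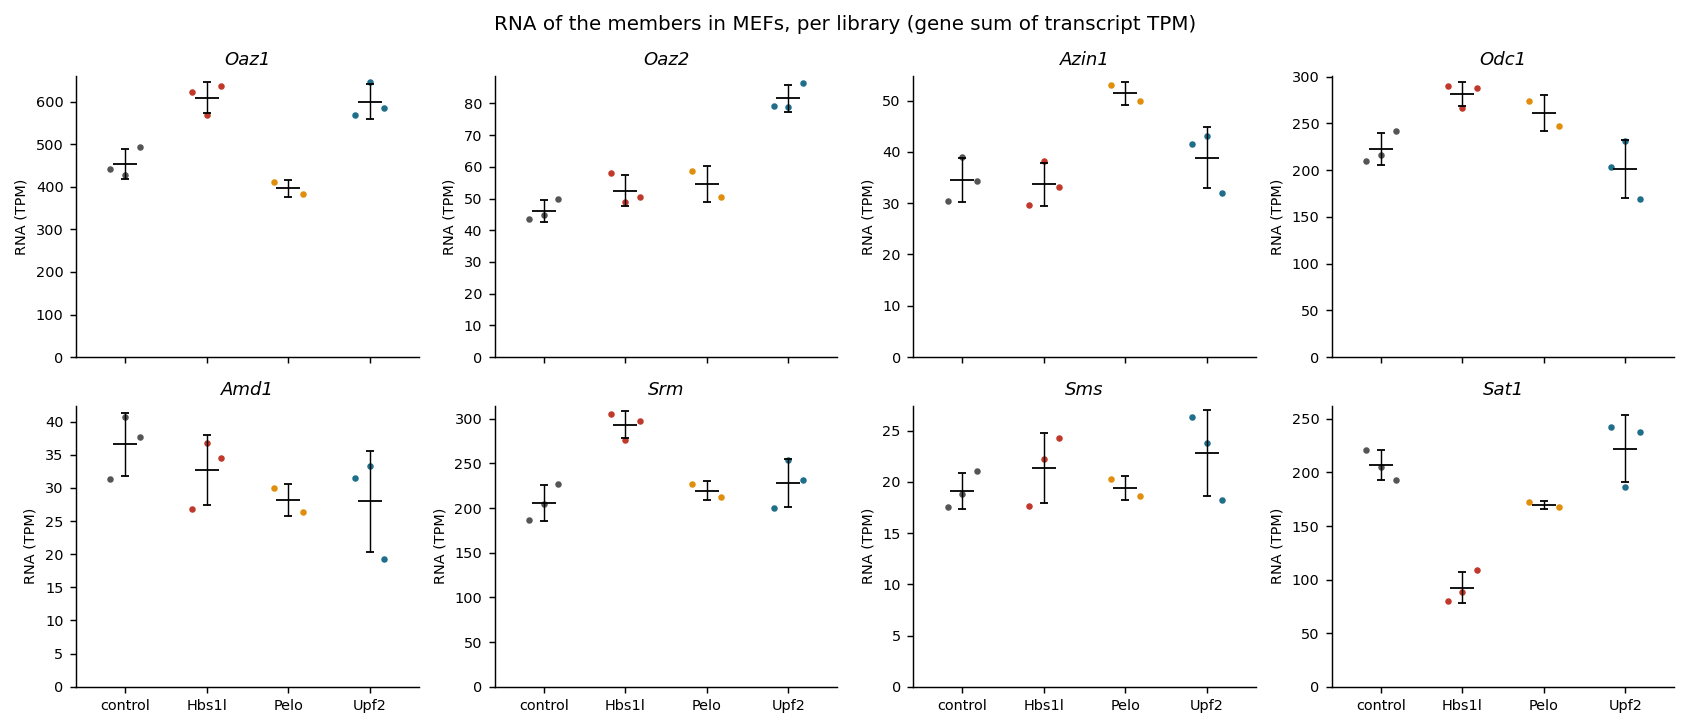
Each panel plots the RNA level of 1 member in TPM (y axis, linear from 0; sum over its transcripts) in each MEF library by genotype (x axis), with the mean and SD in black (n = 3, and 2 for Pelo). Sat1 is lowest in Hbs1l-/- MEFs at 80.2 to 109 TPM, and Oaz2 is highest in Upf2-labelled MEFs at 79.0 to 86.5 TPM.

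Footprints and RNA were then set against each other as translational efficiency (TE), the log2 change in footprints minus that in RNA, tested in 1 model over both assays. The RNA side sums all transcripts of a gene, NMD-annotated and retained-intron ones among them, while footprints were counted on coding sequence. In Pelo-/- MEFs 3 of the 6 members tested were called, where 44.6% of all genes tested were. Oaz1 rose by 1.16 ± 0.21 (SE, adjusted p = 0.000717, edgeR), the combination of its higher footprints and lower RNA, and stayed between 1.02 and 1.33 when 1 library was left out. Srm rose by 0.43 ± 0.11 (adjusted p = 0.00544, edgeR), with RNA at 227 and 212 TPM inside the control range of 187 to 227 TPM. Sat1 fell by 0.58 ± 0.15 on the log2 scale (adjusted p = 0.00692, edgeR), its footprints having fallen further than its RNA. These 3 calls held in every alternative. With no filter on low counts Amd1 and Sms were called as well, with TE changes of 2.16 ± 0.61 (adjusted p = 0.012, edgeR) and 1.03 ± 0.38 (adjusted p = 0.0481, edgeR). These rest on 8, 2 and 17 Amd1 footprints against 1, 3 and 1, and on 16, 7 and 18 Sms footprints against 5, 5 and 3.

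In Upf2-labelled MEFs 1 of 6 members was called, where 20.3% of all genes tested were. Oaz2 fell by 0.63 ± 0.17 on the log2 scale (SE, adjusted p = 0.0172, edgeR), its RNA being higher while its footprints, at 12.8, 14.6 and 14.1 CPM against 11.4, 13.5 and 12 CPM, overlapped the controls. This call was lost without replicate 2 of the footprint controls (adjusted p = 0.0557, edgeR). Mean TPM went from 6.7 in controls to 13.85 for the retained-intron Oaz2-205. It went from 29.7 to 38.5 for the coding Oaz2-201 and from 5.93 to 23.2 for the coding Oaz2-206. Sat1 had a TE change of -0.64 ± 0.23 that did not pass (adjusted p = 0.0614, edgeR) but did with DESeq2 (0.0361) and without footprint replicate 2 of the mutant, RNA replicate 2 of the mutant or RNA control replicate 1. Mean TPM went from 5.42 in controls to 25.5 for the NMD-annotated Sat1-207 and from 185 to 177 for the coding Sat1-201. The part of NMD-annotated and retained-intron RNA in these TE changes was not tested. In Hbs1l-/- MEFs 0 of 6 members were called by edgeR, where 0.0336% of all genes tested were. At an unadjusted p of 0.05, 2 members passed, Oaz1 (-0.48 ± 0.19) and Odc1 (-0.69 ± 0.14), and DESeq2 called 1, Odc1 (adjusted p = 0.00318). For Odc1 the edgeR call was reached without RNA control replicate 1 (adjusted p = 0.0418).

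**Figure D4:**
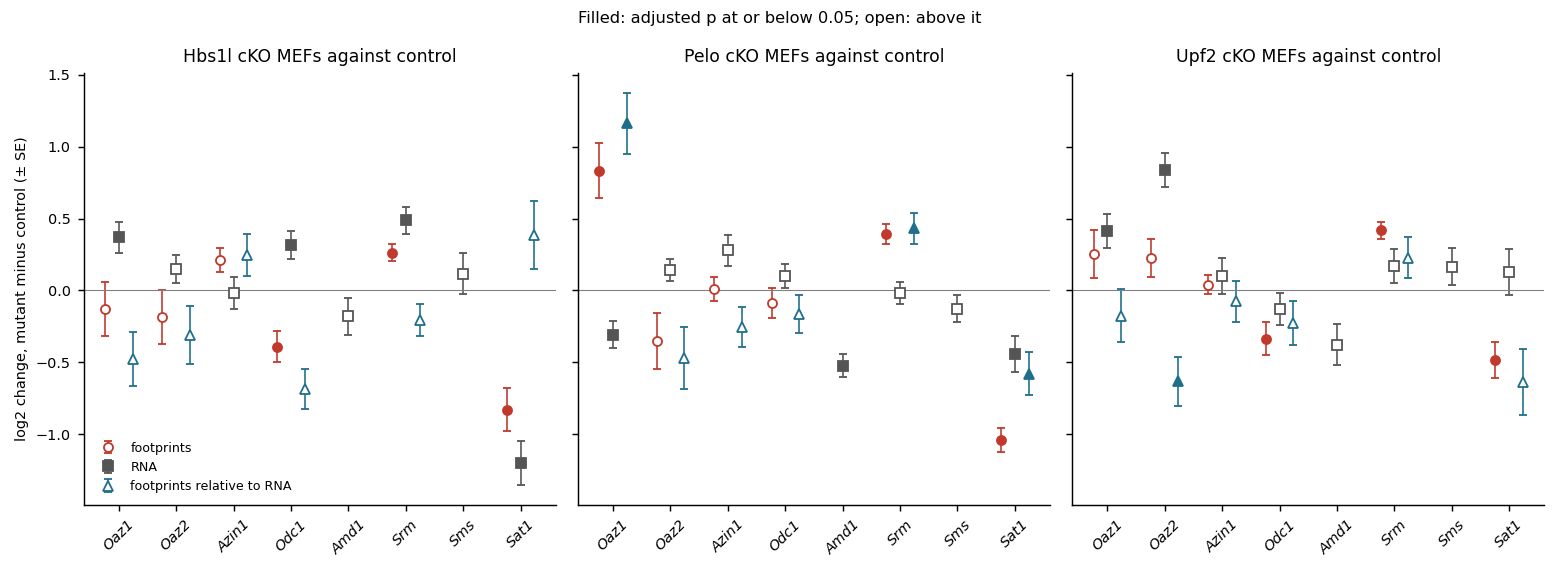
For each member (x axis) the plot gives the log2 change between mutant and control MEFs (y axis, ± SE) of footprints (circles), RNA (squares) and footprints relative to RNA (triangles), in 1 panel per mutant; filled symbols have an adjusted p of at most 0.05. For Oaz1 in Pelo-/- MEFs the footprint change of 0.83 and the RNA change of -0.31 point in opposite directions, while for Sat1 in Hbs1l-/- MEFs both lie below 0.

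The members have 52 annotated transcripts, and the NMD-annotated Sat1-207, whose premature stop is printed above, changed most clearly in the Upf2-labelled MEFs. It stood at 29.2, 23.0 and 24.2 TPM against 5.11, 5.24 and 5.90 TPM, a log2 change of 2.18 ± 0.16 (SE, adjusted p = 0.00214, edgeR) that held in every alternative. Its share of Sat1 RNA was 11.5% against 2.64%, while the coding Sat1-201 remained the main transcript at 193, 145 and 192 TPM against 199, 183 and 174 TPM. Sat1-207 stood at 3.16, 3.17 and 2.48 TPM in Hbs1l-/- MEFs, and at 6.24 and 7.73 TPM in Pelo-/- MEFs. The retained-intron transcript Oaz2-205 was the second call in the Upf2-labelled MEFs, at 14.4, 13.4 and 13.7 TPM against 6.14, 6.88 and 7.08 TPM (1.01 ± 0.14, adjusted p = 0.0159, edgeR), lost without any 1 mutant library or control replicate 1 or 2 (adjusted p = 0.0506 to 0.0731, edgeR). The coding transcript Oaz2-206 had the larger difference, at 24.7, 18.2 and 26.5 TPM against 2.95, 4.46 and 10.4 TPM with no overlap, but its log2 change of 1.94 ± 0.46 did not pass in edgeR (adjusted p = 0.065) and did in DESeq2 (adjusted p = 0.000224). It lay between 1.67 and 2.62 when 1 library was left out, and passed in edgeR without control replicate 3. Uncertainty in assigning reads between isoforms is not part of these tests. In Pelo-/- replicates 1 and 2, Oaz2-206 stood at 10.8 and 23.7 TPM and the coding Oaz2-201 at 35.9 and 15.6 TPM. With 2 of 38 member transcripts called, their share lay near the 5.35% of all transcripts tested.

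Of 5 NMD-annotated member transcripts tested in the Upf2-labelled MEFs 1 was called, Sat1-207, where 14.8% of all 2945 NMD-annotated transcripts were. Azin1-205 was at 6.73, 5.77 and 4.94 TPM against 2.01, 4.84 and 3.21 TPM, every mutant library above every control library, and did not pass the test (0.76 ± 0.26, adjusted p = 0.153, edgeR). Odc1-205 was at 23.8, 28.2 and 21.8 TPM against 22.7, 22.5 and 28.9 TPM, with a log2 change of -0.05 ± 0.13, and Sms-204 at 19.4, 17.5 and 13.4 TPM against 13, 13.2 and 16 TPM, with 0.20 ± 0.15. Sms-204 held 73.4% of all Sms RNA in control MEFs, although it lacks an exon of 115 bases that the coding Sms-201 has. The median log2 change of the 5 was 0.20, against 0.88 over all NMD-annotated transcripts tested.

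In Hbs1l-/- MEFs 3 of 36 member transcripts were called, where 1.31% of all transcripts tested were: Sat1-201 at 70.4, 78.3 and 97.8 TPM (-1.20 ± 0.18 SE, adjusted p = 0.0455, edgeR), Sat1-202 (-1.58 ± 0.23, adjusted p = 0.0438, edgeR) and Srm-201 (0.51 ± 0.08, adjusted p = 0.0464, edgeR). Each of these calls was lost when any 1 of the 6 libraries was left out (adjusted p = 0.0801 to 0.168, edgeR). In Pelo-/- MEFs edgeR called 0 of 34, where 2.37% of all transcripts tested were called, with 8 at an unadjusted p of 0.05 and 4 by DESeq2. Oaz1-207 and Oaz1-205 shared Oaz1 RNA in nearly fixed proportion, with 61.6% to 62.8% of it in Oaz1-207 in every group.

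The libraries labelled with different mutants were also compared directly. Between Upf2-labelled and Hbs1l-/- MEFs 7 of 40 member transcripts differed, where 10.8% of all transcripts tested did. Sat1-207 was higher in the Upf2-labelled MEFs by 3.09 ± 0.17 (SE, adjusted p = 0.000578, edgeR) and Sat1-202 by 2.04 ± 0.23 (adjusted p = 0.00648, edgeR), and these 2 calls held in every alternative. Sms-205, Oaz2-206, Sat1-201 and Oaz2-205 were higher by 2.06, 1.45, 1.08 and 0.70 and Odc1-201 was lower, with a log2 difference of -0.53. The calls on Sms-205 and Oaz2-205 were lost without any 1 of the 6 libraries, that on Odc1-201 without any 1 but Upf2-labelled replicate 2, that on Oaz2-206 without Hbs1l-/- replicate 2 or 3 or Upf2-labelled replicate 1 or 3, and that on Sat1-201 without Hbs1l-/- replicate 1 or 2 or Upf2-labelled replicate 1 or 3 (adjusted p = 0.0538 to 0.118 over these, edgeR). Between Upf2-labelled and Pelo-/- MEFs 3 of 38 differed, where 8.79% of all transcripts tested did: Sat1-207 by 1.96 ± 0.21 (SE, adjusted p = 0.0114, edgeR), Oaz1-205 by 0.71 ± 0.11 (adjusted p = 0.0249, edgeR) and Oaz1-207 by 0.64 ± 0.10 (adjusted p = 0.0213, edgeR). All 3 were lost without either Pelo-/- library, Oaz1-205 and Oaz1-207 also without Upf2-labelled replicate 2, and Oaz1-205 without Upf2-labelled replicate 3 (adjusted p = 0.0502 to 0.142 over these, edgeR).

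**Figure D5:**
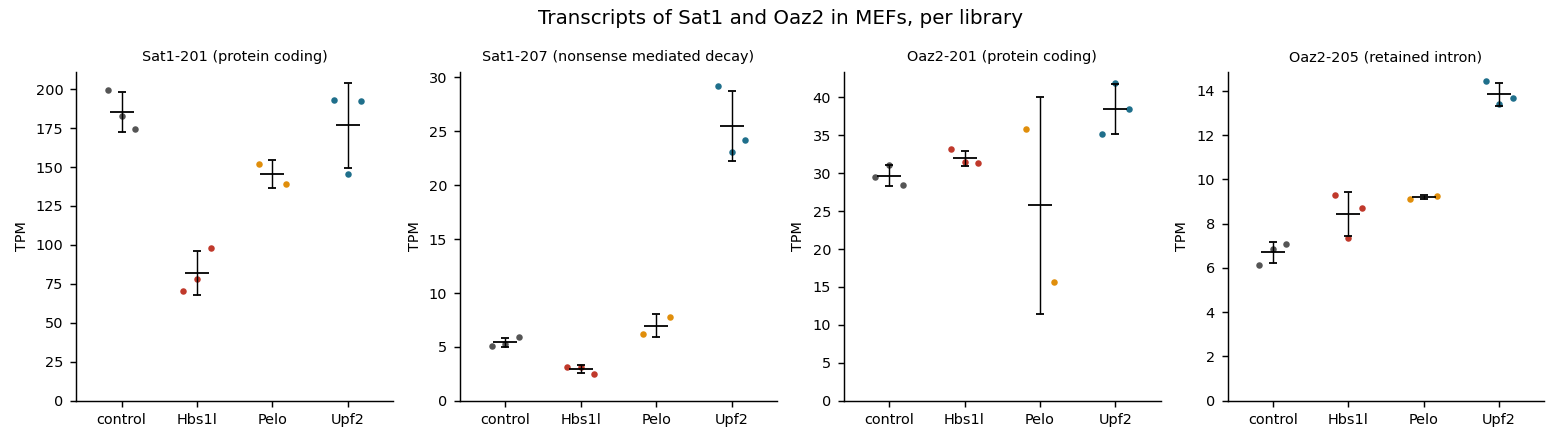
The panels plot TPM (y axes, linear from 0, each with its own scale) of Sat1-201, Sat1-207, Oaz2-201 and Oaz2-205 in each MEF library by genotype (x axis), with the mean and SD in black (n = 3, and 2 for Pelo). Sat1-207 lies at 23.0 to 29.2 TPM in Upf2-labelled MEFs and at most at 7.73 TPM in every other library, while Sat1-201 is lowest in Hbs1l-/- MEFs.

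In embryos, loss of Hbs1l went with lower footprints on the antizyme gene Oaz1 and on its target Odc1. Oaz1 was at 17.9, 7.32 and 14 CPM (159, 36 and 48 counts) in Hbs1l-/- embryos. Wildtype embryos had 39.4, 29.3 and 36.0 CPM (124, 145 and 128 counts), with no overlap. The log2 change of Oaz1 was -1.39 ± 0.28 (SE, adjusted p = 0.0266, edgeR). Odc1 was at 18.2, 14.6 and 14.6 CPM against 28, 39.8 and 29.2 CPM, also without overlap (-1.03 ± 0.22, adjusted p = 0.0324, edgeR). Of 6 members tested 2 were called, where 1.87% of all genes tested were. Azin1, which antagonizes antizyme, was at 74.3, 107 and 108 CPM against 58.8, 57.8 and 63.8 CPM. Its groups did not overlap either, and its log2 change of 0.67 ± 0.17 had an adjusted p of 0.0679 in edgeR and 0.0248 in DESeq2. Sat1, at 8.89, 11.4 and 8.76 CPM against 5.41, 4.24 and 8.71 CPM, lay just above its controls (0.67 ± 0.34, adjusted p = 0.312, edgeR). Srm (-0.23 ± 0.15) and Oaz2 (-0.50 ± 0.33) overlapped. Amd1, at 0, 5 and 3 counts against 3, 13 and 10, and Sms, at 14, 7 and 0 against 7, 13 and 6, did not pass the filter on low counts.

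The embryo libraries include the shallowest of the study, and markers of other cell types moved with the same groups. The Oaz1 call was lost without any 1 of the 3 control libraries (adjusted p = 0.104 to 0.162, edgeR), and that on Odc1 without mutant replicate 2 or 3 or any 1 control library (adjusted p = 0.074 to 0.22, edgeR). The 3 embryonic globins summed to 2524 to 6951 CPM in Hbs1l-/- embryos against 10430 to 13430 CPM, 2 of them called lower. The 5 trophoblast markers summed to 66.5 to 515 CPM against 4.21 to 6.36 CPM, 3 of 4 tested called higher, and all 4 cardiomyocyte markers were called lower, with sums of 567 to 833 CPM against 1369 to 1476 CPM. The part of these markers in the values of Oaz1 and Odc1 was not tested. Of their coding windows, 95.7% of Oaz1 and 84.4% of Odc1 are shared with other genes. No embryo RNA was sequenced, so RNA level and translation cannot be told apart here.

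In cerebellum 0 of 8 members were called by edgeR, where 0.0624% of all genes tested were. No member passed at an unadjusted p of 0.05 either, and DESeq2 called 0. Oaz1 stood at 20.9, 36.3 and 38.2 CPM against 35.5, 44.2 and 28.1 CPM, a log2 change of -0.17 ± 0.25 (SE). Odc1 stood at 16.5, 15.4 and 17.6 CPM against 12.2, 17.2 and 13.5 CPM, with 0.21 ± 0.15, and Sat1 at 17.6, 19.7 and 23.8 CPM against 22.8, 20.9 and 30 CPM, with -0.26 ± 0.18. All 8 pairs of groups overlapped.

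The effect of Hbs1l on each member was then compared between tissues as an interaction. Tissue, batch, strain and the way Hbs1l was removed change together here and cannot be told apart. Between embryos and cerebellum 0 of 8 members differed by edgeR, where 0.732% of all genes tested did. At an unadjusted p of 0.05, 4 passed, and DESeq2 called 2, Odc1 (-1.21, adjusted p = 0.00247) and Azin1 (0.83, adjusted p = 0.0232). In edgeR the difference for Odc1 was -1.24 ± 0.27 (SE, adjusted p = 0.0506). Between embryos and MEFs 2 of 7 members differed, where 7.46% of all genes tested did. For Oaz1 the log2 change in embryos minus that in MEFs was -1.24 ± 0.36 (SE, adjusted p = 0.0461, edgeR), and for Sat1, whose footprints fell in Hbs1l-/- MEFs, the difference was 1.52 ± 0.34 (adjusted p = 0.0136, edgeR). The call on Oaz1 was lost without any 1 of the 12 libraries other than mutant embryo replicate 1 (adjusted p = 0.0557 to 0.115, edgeR), and that on Sat1 without control embryo replicate 2 (0.0527).

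Beyond the members, a list of 26 genes of polyamine metabolism and its supply was followed. In MEF footprints 7 of 22 tested were called in Hbs1l-/-, 11 in Pelo-/- and 8 in Upf2-labelled cells, where 34.1%, 44.1% and 43.4% of all genes were, and its median log2 change was -0.01, 0.04 and -0.07. Azin2, the second antizyme inhibitor gene, fell in each (log2 changes of -1.06, -1.16 and -1.48), as did Eif5a2, an isoform of the factor that is hypusinated from spermidine (-0.68, -0.90 and -0.66), and Atp13a3, a polyamine transporter (-0.48, -0.69 and -0.55). Slc3a2, a solute carrier subunit, rose in each (0.23, 0.60 and 0.63). In RNA 9, 10 and 5 of 24 were called, where 23.1%, 32.1% and 20.0% of all genes were. Upf2-labelled MEFs had more RNA of Smox, the spermine oxidase gene (log2 change 1.37), and of Dhps and Dohh, the 2 hypusination enzymes (1.17 and 0.75). RNA of Myc, a transcription factor known to act on Odc1, rose in Hbs1l-/- and Pelo-/- MEFs (0.49 and 0.75). In TE, 0 of 22 were called in Hbs1l-/- MEFs by edgeR (4 at an unadjusted p of 0.05, 0 by DESeq2), 4 in Pelo-/- and 6 in Upf2-labelled MEFs, all 6 lower and among them Azin2 (-1.74) and Smox (-1.20), where 0.0336%, 44.6% and 20.3% of all genes were called.

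In embryos edgeR called 0 of 20 genes of the list (3 at an unadjusted p of 0.05, 0 by DESeq2) and 1.87% of all genes, and in cerebellum 0 of 23 (4 and 1) and 0.0624% of all genes. Between embryos and cerebellum the effect differed for 0 of 23 by edgeR (6 at an unadjusted p of 0.05, 1 by DESeq2), where it differed for 0.732% of all genes. Between embryos and MEFs it differed for 3 of 23, where 7.46% of all genes differed, and was higher in the embryo for all 3: Azin2 (2.57 ± 0.71 SE, adjusted p = 0.0368, edgeR), Arg1, an arginase gene (1.5 ± 0.36, adjusted p = 0.0195, edgeR), and Atp13a3 (0.79 ± 0.21, adjusted p = 0.0279, edgeR).

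Genes whose footprints followed a member most closely over the 30 libraries were found by the root mean square difference of centred log2(CPM + 1) values, over 11530 genes with a mean of at least 5 CPM. The difference is read against the spread of the member's own profile, given second here. It was 0.123 and 0.207 for Azin1 and Dhx36, so that the Azin1 profile was itself flat, and 0.128 and 0.919 for Srm and Nup62. It was 0.205 and 0.42 for Odc1 and Lrrc14, 0.251 and 0.689 for Oaz2 and Mical3, 0.286 and 0.866 for Sat1 and Lrrc28, and 0.368 and 0.903 for Oaz1 and Uqcrb. The distances of Amd1 and Sms rest on few reads and are not read further. These profiles span tissues as well as genotypes.

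Footprints of marker genes of other cells moved with the MEF mutants as well. The 5 macrophage markers summed to 183 to 240.3 CPM in Hbs1l-/-, 409 to 587 in Pelo-/- and 136 to 178 in Upf2-labelled MEFs, against 109 to 145 CPM in the control pools, with 4, 5 and 3 of 5 called higher. The fibroblast markers, at 38740 to 47660 CPM in the mutants, were also above their controls, with 6, 5 and 6 of 7 called and all but 1 of these calls higher. The 5 endothelial markers were lower in sum, at 42.7 to 48.9 CPM in Hbs1l-/-, 29.3 to 37.8 in Pelo-/- and 58.6 to 69.2 in Upf2-labelled MEFs against 79.1 to 99.5 CPM, with 2 of 3, 2 of 4 and 1 of 3 tested called lower and 1 called higher in each of Pelo-/- and Upf2-labelled MEFs. In MEF RNA, 3, 1 and 0 of 5 macrophage markers were called in Hbs1l-/-, Pelo-/- and Upf2-labelled cells, all higher. Of 7 fibroblast markers, RNA of 3, 1 and 1 was called, higher in Hbs1l-/- and Pelo-/- and lower in Upf2-labelled MEFs. Of 4 endothelial markers tested in RNA, 2, 1 and 1 were called, lower in Hbs1l-/- and Upf2-labelled and higher in Pelo-/- MEFs. The part of these markers in the changes of Sat1, Srm and Oaz1 was not tested.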

How the data were processed

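Ribosome footprints were sequenced from embryos, cerebella and MEFs, and poly(A) RNA from MEFs, in 41 samples. For the footprints, the authors clipped adapters, removed ribosomal reads with Bowtie2 2.2.3, aligned to mm10 with HISAT2 2.1.0 and deposited raw counts over coding sequences from featureCounts. For RNA, the authors deposited kallisto 0.42.4 estimated counts and TPM per transcript (Gencode M24). TPM as deposited (transcript abundance scaled to a constant library total) were summed per gene for levels, and estimated counts were summed and rounded for tests. CPM (counts scaled to a constant library total) used TMM factors over all footprint libraries.

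Samples were grouped by their labels, and each MEF mutant was compared with the controls of its own footprint batch. Counts were tested over all genes or transcripts with edgeR 4.0.16 (glmQLFit and glmQLFTest, TMM, filterByExpr, R 4.3.3) and Benjamini-Hochberg adjustment at 0.05. Fold changes are log2, with SE taken from the quasi-likelihood F. The transcript tests leave out the uncertainty of assigning reads between isoforms. Translational efficiency was the assay by genotype interaction, and tissue differences the tissue by genotype interaction. Histone genes were left out of footprint tests. Alternatives were DESeq2 1.42.0, RLE factors, no filter on low counts, the replicate number as a block, each library left out and, for MEF footprints, control libraries summed over the 3 pools. The main fit was run on simulated data for some comparisons only. These were footprints of Pelo-/- MEFs and Hbs1l-/- embryos, TE and transcripts of Upf2-labelled MEFs, and the interaction of embryos and MEFs. Sequences came from Gencode M21 on GRCm38, another release than that of the files, and coordinates are given on that build.

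The 8 members were taken by symbol, and the members and lists were chosen with earlier results of these data known. Named beside them were the pathway genes past the threshold with at least 5 CPM (up to 5 per comparison, by size of change), member transcripts past the threshold, annotated NMD transcripts, the top transcript of each member, and the nearest genes by profile. Limits for a count of 0 use 3 counts, and they cover counting error only.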

Additional observations from a re-analysis of the deposited data

Results flagged for a closer look

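Effects that differed between tissues or mutants are listed here with their log2 values. The Hbs1l effect in embryos minus that in MEFs was -1.24 for Oaz1 and 1.52 for Sat1, by the interaction test in edgeR. Batch, strain and the way Hbs1l was removed differed along with the tissue. Between Upf2-labelled and Hbs1l-/- MEFs, tested directly, the transcripts differed by 3.09 (Sat1-207), 2.06 (Sms-205), 2.04 (Sat1-202), 1.45 (Oaz2-206), 1.08 (Sat1-201), 0.70 (Oaz2-205) and -0.53 (Odc1-201). Between Upf2-labelled and Pelo-/- MEFs they differed by 1.96 (Sat1-207), 0.71 (Oaz1-205) and 0.64 (Oaz1-207).

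In other pairs every library of one comparison lay on one side of its controls and every library of the other on the opposite side. These differences were not tested at gene level. Oaz1 footprints changed by -1.39 in Hbs1l-/- embryos and by 0.83 in Pelo-/- MEFs. Sat1 footprints had a log2 change of 0.67 in Hbs1l-/- embryos, which did not pass the test there, against -1.04 in Pelo-/- and -0.49 in Upf2-labelled MEFs. Oaz1 RNA changed by 0.37 in Hbs1l-/- and 0.41 in Upf2-labelled MEFs, and by -0.31 in Pelo-/- MEFs.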

How the results depend on the processing

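Of 26 calls on member genes 14 held under every alternative, and of 15 on member transcripts 3 did (DESeq2, RLE factors, no filter on low counts, the replicate block, each library left out and, for MEF footprints, summed controls). The causes of the changes below were not tested. DESeq2 called 1 member in TE of Hbs1l-/- MEFs (edgeR 0), 2 in TE of Upf2-labelled MEFs (1), 2 between embryos and cerebellum (0), and 8, 4 and 4 member transcripts in Hbs1l-/-, Pelo-/- and Upf2-labelled MEFs (3, 0 and 2) and 10 between Upf2-labelled and Pelo-/- MEFs (3). With no filter on low counts 5 members were called in TE of Pelo-/- MEFs (3; Amd1 and Sms were added) and 1 transcript in Hbs1l-/- MEFs (3).

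Same-numbered mutant and control libraries did not all deviate together (r between -0.237 and 0.219 for footprints; 0 comparisons with every pair over 0.1), so the numbers were not taken to pair mutants with controls. Same-numbered footprint and RNA libraries of 1 genotype had r of 0.063 to 0.343 in Hbs1l-/-, 0.0381 to 0.118 in Pelo-/- and -0.0716 to 0.139 in Upf2-labelled MEFs. Over the pairwise comparisons with 3 libraries a group, in which a library can recur, 10 of 30 libraries correlated best with the one of their own number. With the replicate block 0 transcripts were called in Hbs1l-/- MEFs, 1 in Upf2-labelled MEFs, 2 between Upf2-labelled and Hbs1l-/- MEFs and 0 between Upf2-labelled and Pelo-/- MEFs. The block also ended the call on Oaz1 RNA in Pelo-/- MEFs (adjusted p = 0.137, edgeR), gave calls on Azin1 footprints in embryos (0.0306) and Hbs1l-/- MEFs (0.042) and on Amd1 RNA in Upf2-labelled MEFs (0.0468), and changed no other gene call. Azin1 in Hbs1l-/- MEFs was also called with the controls summed over pools (0.0399).

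With 1 library left out, the members called ranged from 0 to 4 in embryos, 0 to 0 in cerebellum, 2 to 4, 3 to 3 and 2 to 3 in footprints of Hbs1l-/-, Pelo-/- and Upf2-labelled MEFs, 2 to 3, 1 to 4 and 1 to 2 in RNA, and 0 to 1, 3 to 4 and 0 to 2 in TE. They ranged from 0 to 3 between embryos and cerebellum and 0 to 5 between embryos and MEFs. Transcripts called ranged from 0 to 0, 0 to 0 and 1 to 3 in the 3 mutants, 2 to 5 between Upf2-labelled and Hbs1l-/- and 0 to 3 between Upf2-labelled and Pelo-/- MEFs.

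No called member changed direction under these alternatives. Uncalled log2 changes near 0 changed sign, namely Azin1 RNA in Hbs1l-/- MEFs with no filter (0.025), and with the block Srm RNA (0.016) and Srm-201 (0.011) in Pelo-/- MEFs. With 1 library left out they ranged, in cerebellum, from -0.32 to 0.072 (Oaz1), -0.71 to 0.28 (Amd1) and -0.21 to 0.13 (Sms). In MEF footprints with Pelo-/-, Azin1 ranged from -0.070 to 0.073. In RNA the range was -0.088 to 0.071 (Azin1) and -0.028 to 0.26 (Sms) for Hbs1l-/- MEFs and -0.046 to 0.014 (Srm) for Pelo-/- MEFs. Among transcripts it was -0.768 to 0.144 (Sat1-202), -0.018 to 0.402 (Sat1-207) and -0.052 to 0.0080 (Srm-201) in Pelo-/- MEFs, -0.223 to 0.053 (Sat1-201) in Upf2-labelled MEFs, -0.118 to 0.00084 (Oaz1-205) between Upf2-labelled and Hbs1l-/- MEFs, and -0.0036 to 1.26 (Oaz2-206) between Upf2-labelled and Pelo-/- MEFs.

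Over all features, calls in embryos numbered 214 (DESeq2 432, no filter 703, block 564, 1 library left out 28 to 2309) and in cerebellum 9 (484, 16, 0 and 0 to 560). In RNA they were 3542 in Hbs1l-/- (1817 to 2663 with 1 library left out), 4727 in Pelo-/- (block 2955, left out 1506 to 4802) and 3194 in Upf2-labelled MEFs (left out 1800 to 3201). In TE they were 4 in Hbs1l-/- (DESeq2 334, block 1, left out 0 to 67) and 2446 in Upf2-labelled MEFs (left out 1507 to 2840). For transcripts they were 481 in Hbs1l-/- (DESeq2 3738, no filter 265, block 0, left out 0 to 0), 826 in Pelo-/- (4496 by DESeq2, block 0, left out 0 to 0), 2175 in Upf2-labelled MEFs (5639 by DESeq2, block 112, left out 567 to 1278), 4540 between Upf2-labelled and Hbs1l-/- (8071, block 415, left out 1329 to 2279) and 3539 between Upf2-labelled and Pelo-/- MEFs (7361, block 0, left out 4 to 2455). Between embryos and cerebellum they were 107 (DESeq2 581, left out 8 to 1123) and between embryos and MEFs 974 (left out 457 to 2757). The share of calls that were higher moved with DESeq2 from 88.9% to 58.5% in cerebellum, 30.5% to 43.1% for transcripts in Pelo-/- MEFs and 81.6% to 61.6% in Upf2-labelled MEFs, and with RLE factors from 50.0% to 66.7% in TE of Hbs1l-/- MEFs. Amd1 and Sms, at 0 to 18 counts, did not pass the filter in MEF footprints.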
